A study of Sus scrofa with 2 samples.

Results

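Tropomyosins, calponins, transgelins and caldesmon, the proteins that line the actin filament and set how myosin and other partners reach it, were examined in PSI, a cloned line of smooth muscle cells from pig ileum. The members were taken by name: TPM1, TPM2, TPM3 and TPM4, CNN1, CNN2 and CNN3, TAGLN and TAGLN2, and CALD1. Of these 10 genes, 8 were matched to 1 identifier each among the 25880 gene identifiers of the expression table. TPM3, a tropomyosin of slow muscle and of most non-muscle cells, and TAGLN2, the broadly expressed transgelin, were matched to no identifier in the name tables used and were not analysed here. The study sequenced RNA from the clone as 2 libraries, replicates 1 and 2, which form 1 group with no second genotype, treatment, tissue or cell type beside it. Both came from cells kept in DMEM supplemented with 10% fetal bovine serum and 1% antibiotics. The line is a single clone, and the labels name no separate cultures for the libraries, so each SD below covers only how far these libraries lie apart, possibly for technical reasons.

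Tropomyosin is a coiled coil that polymerises head to tail along the groove of the actin filament. In smooth muscle, which has no troponin on its filaments, caldesmon and calponin sit on actin and tropomyosin and restrain myosin, and calcium-calmodulin binding or phosphorylation relieves that restraint. Transgelin, also called SM22, is a small calponin-related protein that bundles actin and is among the most abundant proteins of differentiated smooth muscle. Most of these families have a paralog typical of muscle (TPM1, TPM2, CNN1, TAGLN) and others typical of non-muscle cells (TPM3, TPM4, CNN2, CNN3, TAGLN2), and CALD1 makes a long muscle form and a short non-muscle form from a single gene by splicing. TPM1, and to a lesser degree TPM2, also make non-muscle isoforms, and smooth muscle expresses some TPM4, so the division into muscle and non-muscle type is one of genes and not of proteins.

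Expression was deposited as FPKM, in which fragments are divided by gene length and by the library total, so that one gene can be compared with another. The library totals behind the values, recovered from the steps the values take, were 35176565 for replicate 1 and 32217729 for replicate 2. Of 8 smooth muscle markers, 5 reached 1 FPKM in both libraries, a share near the 61.5% of identifiers with a symbol that did. They were led by the actins ACTA2 (693 ± 11.8 FPKM, mean ± SD, n = 2) and ACTG2 (479 ± 15.0). LMOD1 (45.1 ± 0.0997), SMTN (39.6 ± 1.14) and DES (2.90 ± 0.231) were the others. Below 1 FPKM were SYNPO2 and the identifier paired with MYH11, smooth muscle myosin, with 0.461 and 0.522 FPKM, a pairing not checked by position. The regulator MYOCD, the myocardin gene, was listed at 0 in both libraries. Markers of other cells ranged from 0 to the level of ETV1, a marker of interstitial cells of Cajal, the pacemaker cells of the gut, with 14.03 and 14.5 FPKM. The other markers of those cells, KIT and ANO1, were under 1 FPKM, and the list summed to 15.3 and 16.0. None of the 6 epithelial, 4 leukocyte and 4 measured skeletal and cardiac muscle markers reached 1 FPKM, with CDH1, PTPRC and MYOD1 listed at 0. Summed FPKM was 0.0800 and 0.0928 over the epithelial markers, 0.964 and 0.938 over the leukocyte markers and 0.212 and 0.142 over the striated muscle markers. Of 4 endothelial markers only PECAM1 reached 1 FPKM (1.92 and 1.60), and KDR, TIE1 and CDH5 were listed at 0. Of 5 measured fibroblast markers 3 did, PDGFRA, DCN and LUM, a share also near that 61.5%. The fibroblast list summed to 6.56 and 5.91 FPKM. The part of such cells in the results below was not tested.

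All 8 matched thin filament regulators reached 1 FPKM in both libraries, where 40.9% of all identifiers and 61.5% of those with a symbol did. Their median was 8.28 on the log2(FPKM + 1) scale, with 2.29 over all identifiers with a symbol and 0.22 over all identifiers. From the highest to the lowest, the order was TPM4, CALD1, TPM1, TPM2, CNN1, CNN3, CNN2 and TAGLN, and it was the same in replicate 1 and replicate 2. The highest of them, TPM4, ranked 52nd among 14857 identifiers with a symbol, and TPM2 ranked 92nd. CNN2 ranked 1315th and TAGLN 6659th, so that 55.2% of the identifiers with a symbol lay below TAGLN. The 8 genes together held 0.640% of the summed FPKM in replicate 1 and 0.627% in replicate 2.

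**Figure D1:**
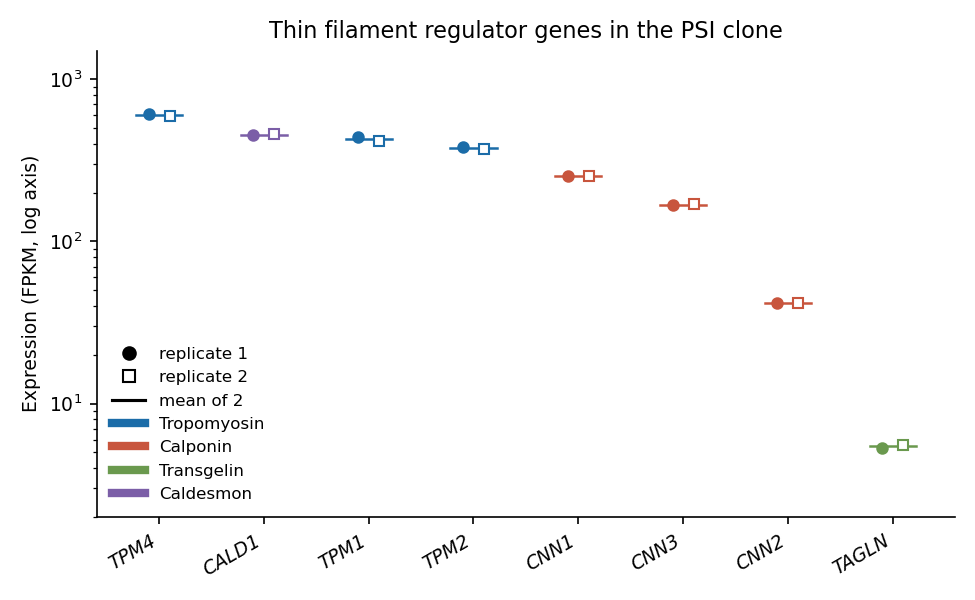
Level of each of the 8 matched genes in the PSI clone, in FPKM on a log axis, with replicate 1 as filled circles, replicate 2 as open squares and their mean as a line. TPM4, CALD1, TPM1 and TPM2 lie between 369.7 and 613 FPKM, CNN2 has a mean of 41.7 FPKM, and TAGLN, with a mean of 5.46 FPKM, stands below every other gene.

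Adjacent genes in this order did not overlap between libraries, but the closest neighbours were hardly further apart than their spread. CALD1 exceeded TPM1 by 15.6 FPKM in replicate 1 and 42.3 in replicate 2, a mean difference of 29.0 ± 18.9 (SD, n = 2), so their order is not resolved beyond that spread. TPM1 exceeded TPM2 by 54.9 and 45.6 FPKM, a mean of 7.63 times the SD of that difference. For the other neighbours the mean was at least 8.03 times the SD. In reads, with length left out, TPM1 was only 1.02-fold and 1.004-fold above TPM2. These differences were not tested: with 2 libraries, the exact sign-flip test cannot go below p = 0.5.

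Among the matched genes, the tropomyosins were the most abundant family, and the leading member was TPM4, the tropomyosin best known from non-muscle cells. TPM3 and TAGLN2 stand outside this ranking, as neither was matched. TPM4 (ENSSSCG00000013849), placed by RefSeq on Sscrofa11.1 chromosome 2 from 61453721 to 61476781, was measured from 88928 and 78374 reads at 613 FPKM in replicate 1 and 589.7 in replicate 2. TPM1 (ENSSSCG00000004570, chromosome 1 from 108986981 to 109016090), the alpha-tropomyosin of striated and smooth muscle, had 439.6 and 415 FPKM. TPM2 (ENSSSCG00000005316, chromosome 1 from 236402249 to 236410390), the beta-tropomyosin, had 385 and 369.7 FPKM. Both libraries thus placed all 3 genes within a narrow band with TPM4 on top.

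TPM4 was 1.39-fold and 1.42-fold above TPM1 in the 2 libraries and 1.59-fold and 1.60-fold above TPM2. On the log2(FPKM + 1) scale the differences were 0.49 ± 0.019 and 0.67 ± 0.0014 (SD, n = 2), and TPM1 lay 0.18 ± 0.017 above TPM2. None of these 3 pairs was over 2-fold apart. The mean of the muscle-type genes TPM1 and TPM2 lay below TPM4, at -0.58 ± 0.010 on the same scale. As shares of the summed FPKM of the 3 genes, TPM4 held 42.8% ± 0.182, TPM1 30.4% ± 0.269 and TPM2 26.8% ± 0.0868, so neither muscle-type gene alone outweighed TPM4. TPM1 and TPM2 together held 57.2% ± 0.182 of the FPKM but 38.7% ± 0.168 of the reads when length was left out, so which type holds the majority depends on the length correction. The read shares rest on recovered lengths, which can be fractions of the true ones, with the reads of that gene reduced alike. Their SD does not cover this. All these shares leave out TPM3. RefSeq lists 24 transcripts of TPM1, 5 of TPM2 and 3 of TPM4, and the gene-level values add all isoforms of a gene, so muscle and non-muscle isoforms of TPM1 cannot be told apart here.

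Among the calponins the muscle-type gene led. CNN1 (ENSSSCG00000013614, chromosome 2 from 70183370 to 70190756) encodes basic calponin, a marker of differentiated smooth muscle, and had 253 FPKM in replicate 1 and 255 in replicate 2. CNN3 (ENSSSCG00000006887, chromosome 4 from 122504450 to 122528351), the acidic calponin of brain and many other cells, had 167 and 170.6 FPKM. CNN2 (ENSSSCG00000039542, chromosome 2 from 77376020 to 77385594), the calponin of fibroblasts, epithelia and blood cells, had 41.7 and 41.6 FPKM. In FPKM, each gene thus had a spread between libraries far smaller than the gap to the next. That spread does not cover error in the length correction. In reads with no length, CNN1 was only 1.13-fold and 1.11-fold above CNN3.

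CNN1 was 1.52-fold and 1.49-fold above CNN3 and 6.07-fold and 6.12-fold above CNN2. CNN3 was 4.01-fold and 4.10-fold above CNN2, so 2 of the 6 pairs compared within families were over 2-fold apart in both libraries, and each of them involved CNN2. CNN1 exceeded the mean of CNN2 and CNN3 by 1.58 ± 0.0034 on the log2(FPKM + 1) scale (SD, n = 2), and the higher of them, CNN3, by 0.59 ± 0.015. Of the summed calponin FPKM, CNN1 held 54.7% ± 0.182, CNN3 36.3% ± 0.264 and CNN2 8.97% ± 0.0820.

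The low level of CNN2 came with a long gene model. The shortest length that makes its values whole reads was 5165 bp, against 1437 bp for CNN1 and 1927 bp for CNN3. Each such length can be a fraction of the true one, with the reads of that gene reduced alike. In reads, CNN2 had 7577 and 6922, CNN3 11325 and 10589, and CNN1 12800 and 11790. CNN2 therefore held 23.8% ± 0.196 of the calponin reads, and CNN1 exceeded it only 1.69-fold and 1.70-fold in reads. Whether the whole of that model is transcribed in these cells was not tested. By the same measure TPM4 also had a longer model, 4125 bp against 1840 bp for TPM1 and 2058 bp for TPM2. TPM4 held 61.3% ± 0.168 of the tropomyosin reads. Leaving out length thus widened its lead over TPM1 and TPM2 and narrowed that of CNN1. In reads with no length, the over 2-fold pairs were TPM4 with TPM1 and TPM4 with TPM2, and 0 of the 2 pairs over 2-fold apart in FPKM were among them. The CNN3 model of RefSeq overlaps SLC44A3 by 430 bases, but SLC44A3 had only 1 and 0 reads.

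**Figure D2:**
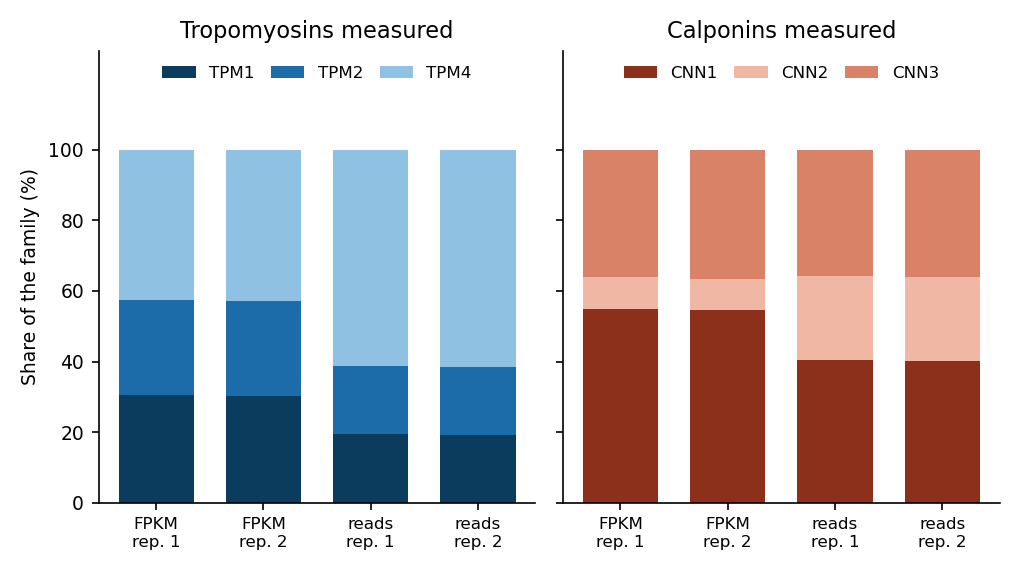
Shares of each measured gene in its family, in percent, from FPKM (per gene length) and from recovered reads (no length), for replicates 1 and 2. TPM4 holds 42.8% of tropomyosin FPKM and 61.3% of tropomyosin reads, and CNN2 holds 8.97% of calponin FPKM and 23.8% of calponin reads. TPM3 had no matched identifier.

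TAGLN stood apart from the other muscle-type genes among the matched regulators. Of the smooth muscle markers above, ACTA2, ACTG2, LMOD1 and SMTN were higher than TAGLN. DES, SYNPO2, MYOCD and the identifier paired with MYH11 were lower. TAGLN (ENSSSCG00000015073, chromosome 9 from 44561756 to 44567385) had 5.34 FPKM in replicate 1 and 5.58 in replicate 2, a mean of 5.46 ± 0.175 (SD, n = 2). Both libraries gave this low level, and it rested on 265 and 254 reads, whereas each of the other 7 genes had at least 6922 reads in either library. CNN1, the muscle-type calponin, was 47.5-fold and 45.6-fold higher. TPM4 was 115-fold and 106-fold higher, and even CNN2 was 7.82-fold and 7.45-fold higher. TAGLN3 (ENSSSCG00000037190), the transgelin of neurons, had 1.37 and 1.11 FPKM, so TAGLN was 3.89-fold and 5.01-fold above it. The comparison with TAGLN2, the usual non-muscle counterpart, could not be made.

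The length behind the TAGLN value, at least 1412 bp, was close to that of CNN1. RefSeq places PCSK7, a proprotein convertase gene, with 187 bases between it and the higher coordinate of TAGLN, and PCSK7 had 13.7 and 13.8 FPKM from 2115 and 1943 reads. Reads that fall in more than 1 gene model are dropped by the usual settings of the read counter, and whether the authors' models of these genes overlap, or reads of TAGLN were lost in another way, was not tested. Of 44 cytosolic ribosomal protein genes, which every cell uses, 4 were under 1 FPKM and the median was 299.9 FPKM. That set was looked at after the values were seen. Whether it bears on TAGLN, with a mean of 5.46 FPKM, was not tested. In bulk RNA, a low level in every cell and expression in few cells cannot be told apart.

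CALD1 (ENSSSCG00000016535, chromosome 18 from 14267955 to 14486641), the caldesmon gene, had 455 FPKM in replicate 1 and 458 in replicate 2. It ranked 74th among the identifiers with a symbol, next to TPM1 at 80th. Its libraries differed by a coefficient of variation of only 0.369%, from 58684 and 54029 reads. RefSeq lists 16 transcripts of CALD1, and the value adds the heavy form of differentiated smooth muscle and the light form of other cells, which cannot be told apart in a gene-level table. A long non-coding RNA gene, LOC102160748, lies within the CALD1 span over 2919 bases, and no identifier carried its symbol.

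Set against the actin they bind, the families differed in their ratio. The 6 actin genes summed to 7184 FPKM in replicate 1 and 7028 in replicate 2. The summed actin level was 5.06 ± 0.0808 times that of TPM1, TPM2 and TPM4 together (SD, n = 2), 15.3 ± 0.349 times that of the calponins and 15.6 ± 0.299 times that of CALD1. It was 1346 and 1259 times that of TAGLN. These are ratios of transcript levels, not of proteins, and the tropomyosin ratio leaves out TPM3.

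Muscle-type genes made up a larger share of the measured tropomyosins and of the calponins than of the actins. The margin depended on the length correction. TPM1 and TPM2 held 57.4% and 57.1% of the measured tropomyosin FPKM, and CNN1 54.8% and 54.6% of the calponin FPKM. The 4 muscle actins ACTA1, ACTA2, ACTC1 and ACTG2 held 16.6% and 16.4% of actin FPKM, the rest being the cytoplasmic actins ACTB and ACTG1. In reads with no length the shares were 38.7% ± 0.168 for the tropomyosins, 40.3% ± 0.0979 for CNN1 and 29.1% ± 0.154 for the muscle actins (SD, n = 2). The reads of a gene are too few where its recovered length is a fraction of the true one, which these SDs do not cover. The values did not overlap between the actins and either family on either scale, and the difference was not tested. All 6 actin genes were measured, but the tropomyosin share leaves out TPM3, of non-muscle type, which would lower it. Whether that share would still exceed the actin share with TPM3 included is not known.

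The 3 tropomyosins were each slightly higher in replicate 1 than in replicate 2. A two-sided exact binomial test of the recovered reads, adjusted by Benjamini-Hochberg over 16327 genes, called 3 of the 8 genes, and all 3 were tropomyosins that were higher in replicate 1. Over all genes tested 1.11% were called, 0.545% as higher in replicate 1 and 0.57% as higher in replicate 2, and 14.3% of the 551 genes averaging at least 100 FPKM were called. TPM1 was 1.06-fold higher in replicate 1 (adjusted p = 4.5e-08, exact binomial test), TPM2 1.04-fold (adjusted p = 0.0017) and TPM4 1.04-fold (adjusted p = 6.6e-12). Of the 6 actin genes, 3 passed the same test in the same direction: ACTG1 with 4124 and 4020 FPKM in replicates 1 and 2, ACTA2 with 702 and 685, and ACTG2 with 489 and 468. ACTB, with 1868 and 1854, did not pass.

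CALD1, CNN1, CNN2, CNN3 and TAGLN did not pass, with adjusted p values from 0.67 (CNN3) to 1.0 (CNN2). CNN1, CNN3, CALD1 and TAGLN were listed slightly higher in replicate 2. The median absolute log2 ratio between libraries was 0.043 over the 8 genes and 0.025 over the genes of at least 100 FPKM. The test sets 1 library against another and against counting noise alone, so its p falls with the number of reads and shows no trait of the tropomyosins. The differences are small beside the gaps between most genes: they leave the order of TPM4, TPM1 and TPM2 the same in each library.

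**Figure D3:**
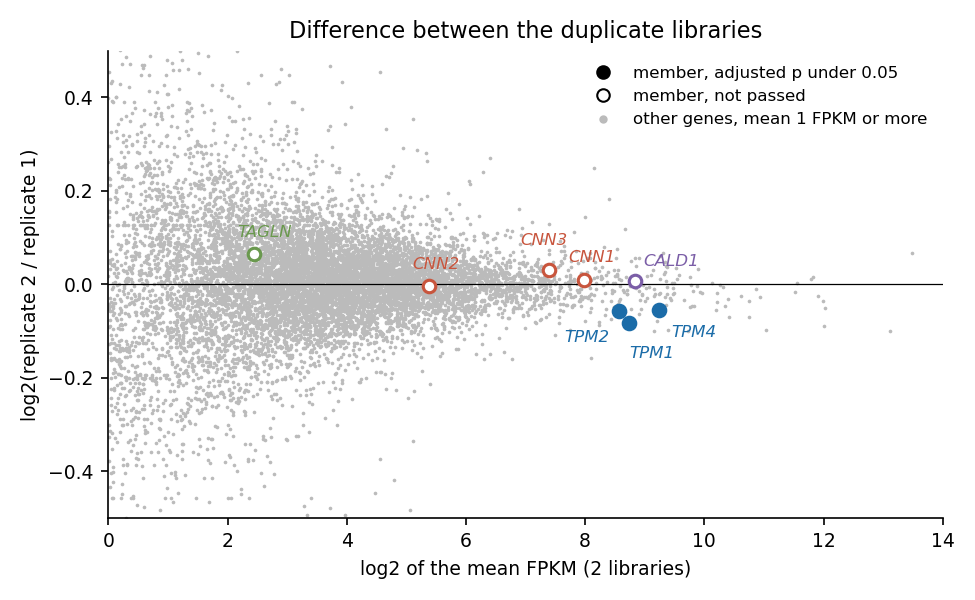
Difference between the libraries as log2(replicate 2 / replicate 1) against the log2 of the mean FPKM, for the 10738 genes averaging at least 1 FPKM, of which 223 lie beyond the plotted range. The filled points TPM1, TPM2 and TPM4 passed the exact binomial test and lie at -0.08, -0.06 and -0.06, and the 5 open points did not pass.

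Proteins that cap, stabilise or crosslink the same filaments ranged from abundant to listed at 0. Of 24 listed genes 20 were measured. Of those, 8 had at least 1 FPKM in each library and 4 were listed at 0, where 61.5% of identifiers with a symbol reached that level. Their median was 0.38 on the log2(FPKM + 1) scale. LASP1, an actin-binding scaffold of focal adhesions, had 192 and 191 FPKM. LMOD1, the leiomodin of smooth muscle that nucleates actin filaments, had 45.04 and 45.2, and SMTN, the actin-associated smoothelin, 40.4 and 38.8. TMOD3, the widely expressed tropomodulin that caps the pointed end of tropomyosin-coated filaments, followed with 31.8 and 32.2, and the muscle tropomodulin TMOD4 had 0.0802 and 0.0986.

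Troponins, which regulate tropomyosin in striated muscle, were at most low. TNNT1, slow skeletal troponin T, had 3.13 and 3.49 FPKM from 145 and 148 reads, and TNNC2, fast troponin C, 0.902 and 1.46 from 37 and 55 reads. TNNT2, TNNC1 and TNNI1 had at most 3 reads in a library, and TNNT3 and TNNI2 were listed at 0, as were LMOD2 and SMTNL2.

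Calcium-binding proteins and kinases listed as possible regulators of caldesmon and calponin were all detected where measured. Of 17 listed genes 16 were matched, and those 16 reached 1 FPKM in both libraries, beside 61.5% of identifiers with a symbol. Their median was 4.87 on the log2(FPKM + 1) scale. Whether each of them acts on caldesmon or calponin was not tested. S100A4, a calcium-binding protein, had 417 and 399.7 FPKM, and CALM2, which encodes calmodulin, had 387 and 378. Most of these genes are active in nearly every cell. Of 17 measured splicing regulators that act on tropomyosin or related muscle exons, 12 reached 1 FPKM, a share near that 61.5%, with a median of 3.99. QKI had 61.9 and 62.4 FPKM, MBNL1 44.7 and 46.6, and PTBP1, a regulator of exon choice in TPM1, 42.1 and 41.4. RBPMS, which promotes smooth muscle splicing, had 38.6 and 38.2, and the epithelial regulators ESRP1 and ESRP2 had at most 0.104. What these levels do to the isoforms cannot be read from gene-level values.

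Serum response factor (SRF) binds the promoters of CNN1, TAGLN and muscle tropomyosin genes in smooth muscle. SRF and its partners were detected in 5 of 6 cases measured, and MYOCD was listed at 0. ELK1 was not matched. These 5 reached 1 FPKM in both libraries, beside 61.5% of identifiers with a symbol. The median over the 6 was 4.01 on the log2(FPKM + 1) scale. SRF had 47.0 and 48.2 FPKM, its coactivator MRTFA 26.6 and 25.5, and the ternary complex factor ELK3 24.5 and 23.5.

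**Figure D4:**
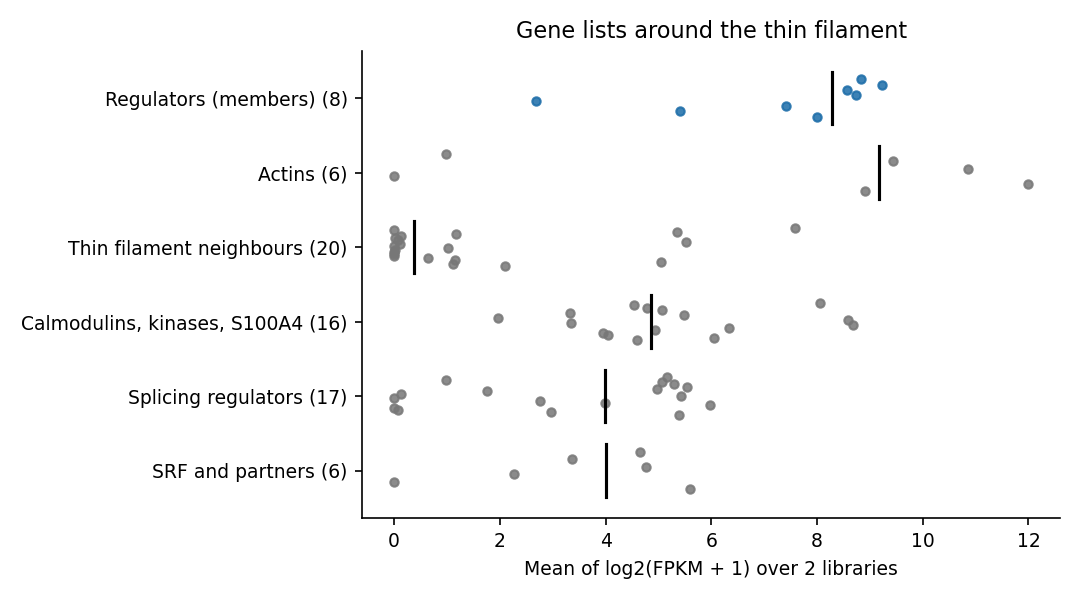
Mean of log2(FPKM + 1) over both libraries for each measured gene of 6 lists, with the number measured in parentheses and the list median as a vertical line. The thin filament regulators have a median of 8.28, with TAGLN lowest at 2.69, and the thin filament neighbours have a median of 0.38.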

How the data were processed

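RNA-seq was measured in 2 libraries of 1 group. The authors deposited 1 table of FPKM values, a column per library. The submitters' processing notes name TopHat2 2.0.12, HTSeq 0.6.1 and the build Sscrofa11.1. The sources used here give neither the annotation release nor the strand setting. A gene name table gave symbols for 14857 of 25880 identifiers, and coordinates come from RefSeq by symbol. No sequence tables were used. Library totals were recovered from the FPKM steps. Lengths from 50 to 30000 bp were tried per gene and the first giving whole reads in both libraries, within 1.2 times the rounding, was kept. It can be a fraction of the true length, with reads reduced alike. All 16327 genes above 0 got a length, and 11 of 13 mitochondrial protein genes got that of RefSeq. Differences used log2(FPKM + 1), which compresses low values. Libraries were compared with a two-sided exact binomial test of these reads (scipy 1.17.1), tested on simulated data first. It covers counting error only. Members and lists were chosen with earlier results of these data known. All members are named, and of each list the highest and the members listed at 0 could be named. Other genes were named after their values were seen, for their role.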

Additional observations from a re-analysis of the deposited data

How the results depend on the processing

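The median level, the family differences and the 6 paralog pairs were recomputed without either library, with a pseudocount of 0.1, rescaled so that the columns had equal sums and as recovered reads over the library total with no length. No difference between paralogs changed sign. That of TPM1 over TPM2 (0.18) fell to 0.018 ± 0.017 (SD, n = 2) in reads with no length. The median of the 8 genes (8.28 on the log2 scale) was 9.72 rescaled, 9.06 in reads with no length and 7.36 as a mean over the genes, and 8.27 to 8.29 without a library. The tropomyosin difference (-0.58) was -1.67 in reads with no length and -0.67 with TPM2 alone against TPM4, and -0.59 to -0.57 without a library. The calponin difference (1.58) was 1.60 with a pseudocount of 0.1, 1.59 rescaled, 0.46 in reads with no length and 0.59 for CNN1 against CNN3 alone, and 1.58 to 1.59 without a library. The fall in reads with no length follows from the construction, which leaves out the longer model of CNN2. As chosen after the data were seen, muscle-type shares were also taken in reads with no length: 38.7% for the tropomyosins (57.2% in FPKM), 40.3% for the calponins (54.7%) and 29.1% for the actins (16.5%). Without a library the FPKM shares were 57.1% to 57.4%, 54.6% to 54.8% and 16.4% to 16.6%. The order of single genes, the actin ratios and the TAGLN folds were given per library alone. The count of pairs over 2-fold apart was 2 in every setting run, but with no length they were other pairs. The number of the 8 genes at the detection level was 8 at 0.5, 1 and 5 FPKM and 6 at 50 FPKM. At 1 FPKM, 64.8% of identifiers above 0 were detected. The share over all identifiers is not given for the other levels, so those counts have no background beside them. The library test called 3 of the 8 genes with the median ratio of genes in place of the totals, with genes of 10 or more reads and at an adjusted p under 0.01 as well. The share of all genes called is not given for these settings. Reads per coding length, the pairing of identifiers through RefSeq and the TAGLN against TAGLN2 comparison were not run, as the tables used gave no protein lengths, Ensembl identifiers or TAGLN2 match. No paired analysis was possible because there is 1 group.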
